A study of Mus musculus with 2 samples.

Results

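The 40 protein-coding genes that encode voltage-gated sodium and calcium channels and their accessory subunits were examined, of 21774 protein-coding genes in all. They were chosen by symbol: Scn followed by digits and a or b, and every symbol that starts with Cacna1, Cacna2d, Cacnb or Cacng. The accessible regions came from single-nucleus ATAC-seq, in which a transposase cuts open DNA in nuclei that each receive a barcode. The nuclei came from E14.5 striatum of embryos labelled WT (wild type), with C57BL/6J and CD1 given as the strain background. There were 2 libraries in 1 group, and the labels do not say whether they came from separate embryos. The deposited data are 1 list of 87174 peaks for the whole series on mm10, which gives positions and no count, score, library or cell type. No treated or mutant group exists in these data, so the comparisons are between genes within the 1 list, depth is unknown and no value has a replicate error.

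Voltage-gated sodium channels open when a membrane depolarises and carry the upstroke of the action potential, while voltage-gated calcium channels turn depolarisation into calcium entry, which drives transmitter release, muscle contraction and gene regulation. In both, a large pore-forming alpha subunit is joined by accessory subunits: beta subunits for sodium channels, and alpha2delta, beta and gamma subunits for calcium channels. Several gamma subunits act mainly on AMPA-type glutamate receptors. Each tissue uses its own alpha subunits, which differ between brain, skeletal muscle, heart, pain-sensing neurons and retina. At the embryonic age sampled, young striatal neurons are leaving the ganglionic eminences and acquiring excitability.

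By known role, 22 genes were placed in a neuronal class, 5 in a muscle class (among them Scn4a, Cacna1s, Cacng1 and Cacng6), and 5 in a sensory class (Scn9a, Scn10a and Scn11a of peripheral sensory neurons, Cacna1f and Cacna2d4 of the retina). A further 7 genes with known roles in brain and also in heart, muscle or endocrine cells formed a mixed class, and Scn7a, a sodium-sensing channel of glia, stood alone. A locus is the gene span with 50 kb on each side. A gene-end peak overlaps the 1000 bp to either side of an end of an annotated gene, and every other peak is called distal. A promoter window is the stretch from 250 bases before to 50 bases after a transcription start listed by RefSeq for build GRCm38.p6, the assembly that mm10 names. Such windows were listed for 30 of the 40 genes, 41 windows in all.

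Of the markers used to check the tissue, all 8 genes of ganglionic eminence and striatum had a gene-end peak, at widths of 3966 to 25417 bp. Of 4 skeletal muscle genes only Myod1 had one, and Myh1 had no peak in its locus. Gene-end peaks were also present at all 4 markers of sensory neurons of ganglia, at 2 of 3 retinal markers, at all 3 cortical markers, and at 1 of 2 markers each of microglia and endothelium. Gene-end peaks thus also occurred at genes that define other cell types, and which cells a peak comes from is not recorded.

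All 40 channel loci held at least 1 peak, whereas 14.1% of protein-coding loci held none. These shares are not matched for length, and the median gene span was 104062 bp in channel genes against 17219 bp in all protein-coding genes. Of the 40 channel genes, 34 had a gene-end peak (85%), against 67.3% of all protein-coding genes. All 22 neuronal genes had one (exact 95% binomial interval 84.6 to 100%), compared with 4 of 5 muscle genes and 3 of 5 sensory genes. Muscle and sensory genes together gave 7 of 10 (34.8 to 93.3%), so the intervals of the neuronal genes and of these 10 genes overlap. The genes without a gene-end peak were Cacng1 (muscle), Scn11a and Cacna1f (sensory), Cacna1d and Cacna1h (mixed) and Scn7a. With the mixed genes added to the neuronal class, the share was 93.1% of 29 genes. With peaks placed by their midpoint, the share was 90.9% in neuronal, 80% in muscle and 40% in sensory genes, against 61.1% of all protein-coding genes. The contrast depended on the width of the window: with 2500 bp in place of 1000 bp, all 5 muscle and all 5 sensory genes had a gene-end peak, as had all 22 neuronal genes. With that window the share over all protein-coding genes was 71.4%. Genes of a class are not replicates and were not chosen at random, so these shares are described and not tested. The classes were also set with earlier results of these data known, which holds for every comparison between classes below.

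Promoter windows in a peak were likewise more frequent among neuronal genes. Of neuronal genes with a listed window, 15 of 16 had at least 1 window in a peak (93.8%, interval 69.8 to 99.8%). Of muscle and sensory genes with one, 3 of 7 did (42.9%, 9.9 to 81.6%), namely Cacna1s, Scn9a and Scn10a. The same share was 64.8% over all 17492 protein-coding genes with a listed window, and 64.4% when each of their 21263 windows was counted by itself. All 6 mixed genes with a listed window had at least 1 in a peak, but they had 12 windows, of which 7 were in a peak (58.3%). The neuronal exception was Cacng8, which encodes an AMPA receptor auxiliary subunit of hippocampus: its window lay 1491 bp from the nearest peak, and its gene-end peak of 1701 bp was at the far end of the gene. The muscle genes Scn4a and Cacng6 had no listed window in a peak, but their listed starts lie inside the annotated span. Each had a gene-end peak at the 5′ end of its span. The shares over windows thus depend on which starts are listed.

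**Figure D1:**
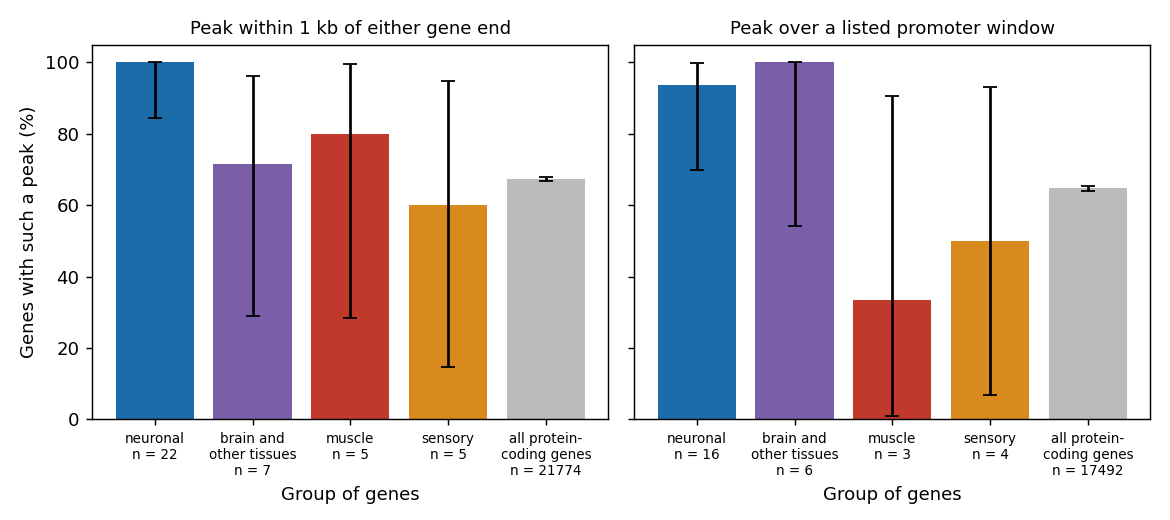
Share of genes (%) with a peak within 1 kb of either gene end (left) and with a peak over at least 1 listed promoter window (right), by class, with all protein-coding genes in grey; error bars are exact 95% binomial intervals over genes. All 22 neuronal genes are in the left bar at 100%, and the bars of the muscle and sensory classes rest on 5 genes each at the left and on 3 and 4 genes at the right, with intervals that reach across most of the axis.

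A gene-end peak can also lie within 1000 bp of an end of another annotated gene, as it did at 17 of the 34 channel genes with one, against 43.6% of protein-coding genes with one. By class, 9 of 22 neuronal genes, 4 of 5 mixed genes, 3 of 4 muscle genes and 1 of 3 sensory genes with a gene-end peak had such a shared one. Most of the other genes are non-coding, as at Scn9a, whose start peak also reaches an end of Gm35265. For Scn4a, the sodium channel of skeletal muscle, the peaks of 674 and 468 bp at the gene's high-coordinate end were also within 1000 bp of an end of the long non-coding RNA gene LOC108167929, and the promoter window of Scn4a was 4255 bp from the nearest peak. For Cacng6, a muscle gamma subunit, the gene-end peak of 848 bp also reached the end of the non-coding gene 3300002P13Rik and lay 439 bp from the listed window. For Cacna1s, the voltage sensor of skeletal muscle contraction, a peak of 1589 bp before the gene covered Ascl5, a basic helix-loop-helix gene, while the listed start itself lay under a peak of only 297 bp.

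Among neuronal genes, the width of each gene's widest gene-end peak was highest at Cacna1g (5182 bp), which encodes a low-threshold T-type channel of thalamic and other neurons and lowest at Scn2a (404 bp), the sodium channel of the axon initial segment. The median of the widest gene-end peak of each gene was 2058 bp in the neuronal class, 1219 bp in the 4 muscle genes with one, 1143 bp in the 3 sensory genes with one and 1741 bp in all protein-coding genes with one. Peaks of the broadest 1% of the list (above 4479 bp) lay in the span or within 1000 bp of it at 3 of the 40 channel genes, against 3.95% of protein-coding genes. They were the peaks at Cacna1g, at Cacnb1 (4552 bp, which also covers an end of the ribosomal protein gene Rpl19) and inside Cacnb3 (6099 bp). None of the 3 genes is in the muscle or sensory class.

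Start sites within a gene differed in whether a peak covered their windows. Of 9 channel genes with more than 1 listed window, 4 had all windows in a peak (Scn2a, Scn8a, Cacnb4 and Cacnb3) and 5 had some in a peak and some outside (Cacna1c, Cacna1d, Cacnb1, Cacnb2 and Cacng5). Among all 2761 protein-coding genes with more than 1 listed window, 26.9% were split in this way. In the 5 split channel genes the windows in a peak held 17 to 63 CG dinucleotides and the 6 windows outside held 3 to 7, with no overlap. A difference in this direction is general. Over all listed protein-coding windows, 97.97% of those with 15 or more CG were in a peak, against 9.84% of those with at most 4. The same ranges were not computed for the other split genes. The windows of Cacna1c and Cacna1d, the L-type channels of neurons, heart and endocrine cells, are shown with those of the sodium channel genes Scn2a, Scn2b, Scn4a and Scn10a, because they span the range from dense CG with a wide peak to sparse CG with and without a peak. The sequences are RefSeq's (GRCm38.p6), 5′ to 3′, with the start site at the 50th base from the 3′ end and each CG in capitals.
Cacna1c first listed start, outside any peak (chr6:119196360-119196659, - strand): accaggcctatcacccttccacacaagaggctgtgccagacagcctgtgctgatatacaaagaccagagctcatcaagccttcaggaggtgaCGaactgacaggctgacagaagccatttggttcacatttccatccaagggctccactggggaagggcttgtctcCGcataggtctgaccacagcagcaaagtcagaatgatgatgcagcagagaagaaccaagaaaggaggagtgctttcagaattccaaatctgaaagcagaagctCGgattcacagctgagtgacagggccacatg
Cacna1c second listed start, in a peak (chr6:119108446-119108745, - strand): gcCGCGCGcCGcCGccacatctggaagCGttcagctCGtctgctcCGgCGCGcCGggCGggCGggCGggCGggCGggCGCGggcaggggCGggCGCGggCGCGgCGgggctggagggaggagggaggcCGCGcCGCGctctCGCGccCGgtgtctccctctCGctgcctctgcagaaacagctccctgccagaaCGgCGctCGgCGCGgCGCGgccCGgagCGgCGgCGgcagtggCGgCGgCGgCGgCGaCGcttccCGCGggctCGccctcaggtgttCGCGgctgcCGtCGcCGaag
Cacna1d first listed start, outside any peak (chr14:30491107-30491406, - strand): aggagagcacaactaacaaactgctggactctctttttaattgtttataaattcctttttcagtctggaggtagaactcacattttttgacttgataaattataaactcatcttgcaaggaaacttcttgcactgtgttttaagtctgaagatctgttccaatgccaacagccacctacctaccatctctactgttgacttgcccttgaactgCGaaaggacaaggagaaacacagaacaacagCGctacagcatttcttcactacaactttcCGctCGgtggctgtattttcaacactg
Cacna1d second listed start, in a peak (chr14:30353437-30353736, - strand): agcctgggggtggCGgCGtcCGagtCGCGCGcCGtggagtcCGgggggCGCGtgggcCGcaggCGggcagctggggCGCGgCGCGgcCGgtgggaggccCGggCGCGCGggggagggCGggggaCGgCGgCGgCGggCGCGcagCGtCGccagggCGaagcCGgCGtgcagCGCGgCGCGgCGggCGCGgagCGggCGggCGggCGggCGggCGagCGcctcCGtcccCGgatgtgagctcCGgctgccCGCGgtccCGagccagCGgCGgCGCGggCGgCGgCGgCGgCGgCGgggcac
Scn2a first listed start, in a peak (chr2:65620519-65620818, + strand): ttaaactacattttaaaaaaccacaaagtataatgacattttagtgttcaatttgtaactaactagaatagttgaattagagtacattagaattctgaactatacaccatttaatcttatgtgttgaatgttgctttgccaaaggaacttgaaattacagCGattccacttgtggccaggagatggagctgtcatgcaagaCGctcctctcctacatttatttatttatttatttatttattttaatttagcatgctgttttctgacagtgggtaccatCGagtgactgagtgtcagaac
Scn2a second listed start, in a peak (chr2:65668436-65668735, + strand): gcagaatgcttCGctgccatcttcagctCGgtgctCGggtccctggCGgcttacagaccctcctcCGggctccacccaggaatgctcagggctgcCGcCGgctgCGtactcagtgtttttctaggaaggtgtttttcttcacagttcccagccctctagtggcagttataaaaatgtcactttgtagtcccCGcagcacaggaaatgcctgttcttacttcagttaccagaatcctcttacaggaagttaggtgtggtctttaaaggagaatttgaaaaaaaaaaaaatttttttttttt
Scn2b start, in a peak (chr9:45117626-45117925, + strand): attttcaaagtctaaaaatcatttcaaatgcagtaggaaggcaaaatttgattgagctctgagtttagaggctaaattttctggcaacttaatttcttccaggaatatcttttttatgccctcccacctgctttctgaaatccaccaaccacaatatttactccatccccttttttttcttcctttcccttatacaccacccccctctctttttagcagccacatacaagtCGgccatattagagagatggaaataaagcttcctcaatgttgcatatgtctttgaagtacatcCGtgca
Scn4a start, outside any peak (chr11:106349341-106349640, - strand): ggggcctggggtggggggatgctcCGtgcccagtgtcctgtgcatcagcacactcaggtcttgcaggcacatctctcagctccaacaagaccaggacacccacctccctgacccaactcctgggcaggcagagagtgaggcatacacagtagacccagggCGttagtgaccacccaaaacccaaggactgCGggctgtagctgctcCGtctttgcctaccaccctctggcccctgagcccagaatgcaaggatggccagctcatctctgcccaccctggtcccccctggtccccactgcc
Scn10a start, in a peak (chr9:119718983-119719282, - strand): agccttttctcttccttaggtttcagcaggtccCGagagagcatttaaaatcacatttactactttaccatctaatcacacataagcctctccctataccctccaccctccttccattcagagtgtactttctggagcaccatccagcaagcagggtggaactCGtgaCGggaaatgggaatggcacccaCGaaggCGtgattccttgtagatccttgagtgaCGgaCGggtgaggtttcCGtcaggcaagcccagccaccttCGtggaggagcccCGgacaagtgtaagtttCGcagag

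For Cacna1c the second listed start, 87.9 kb inside the gene from the first, held 57 CG and lay under a peak of 4282 bp (119105389 to 119109671 on chromosome 6), the widest of its locus. The window of the first listed start held 3 CG and was 1167 bp from the nearest peak. That peak was the gene-end peak of Cacna1c, of 1961 bp (119197826 to 119199787), just beyond the 5′ end of the span. The window of the third listed start, 438 kb along, held 7 CG and was 845 bp from a peak. The same order was seen at Cacna1d: the start 138 kb inside the gene held 63 CG under a peak of 3044 bp (30351963 to 30355007 on chromosome 14), whereas the window of the first listed start, with 4 CG, was 10854 bp from a peak. Both internal peaks are counted as distal below, because they are far from either gene end. At the calcium channel beta subunit genes Cacnb1 and Cacnb2 it was the first window, with 34 and 35 CG, that lay in a peak. The later window, with 3 and 4 CG, was 326 and 4481 bp from the nearest peak. Cacng5, an AMPA receptor auxiliary subunit gene, had 17 CG in its first window under a peak of 874 bp and 5 CG in its second window, 1331 bp from a peak.

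**Figure D2:**
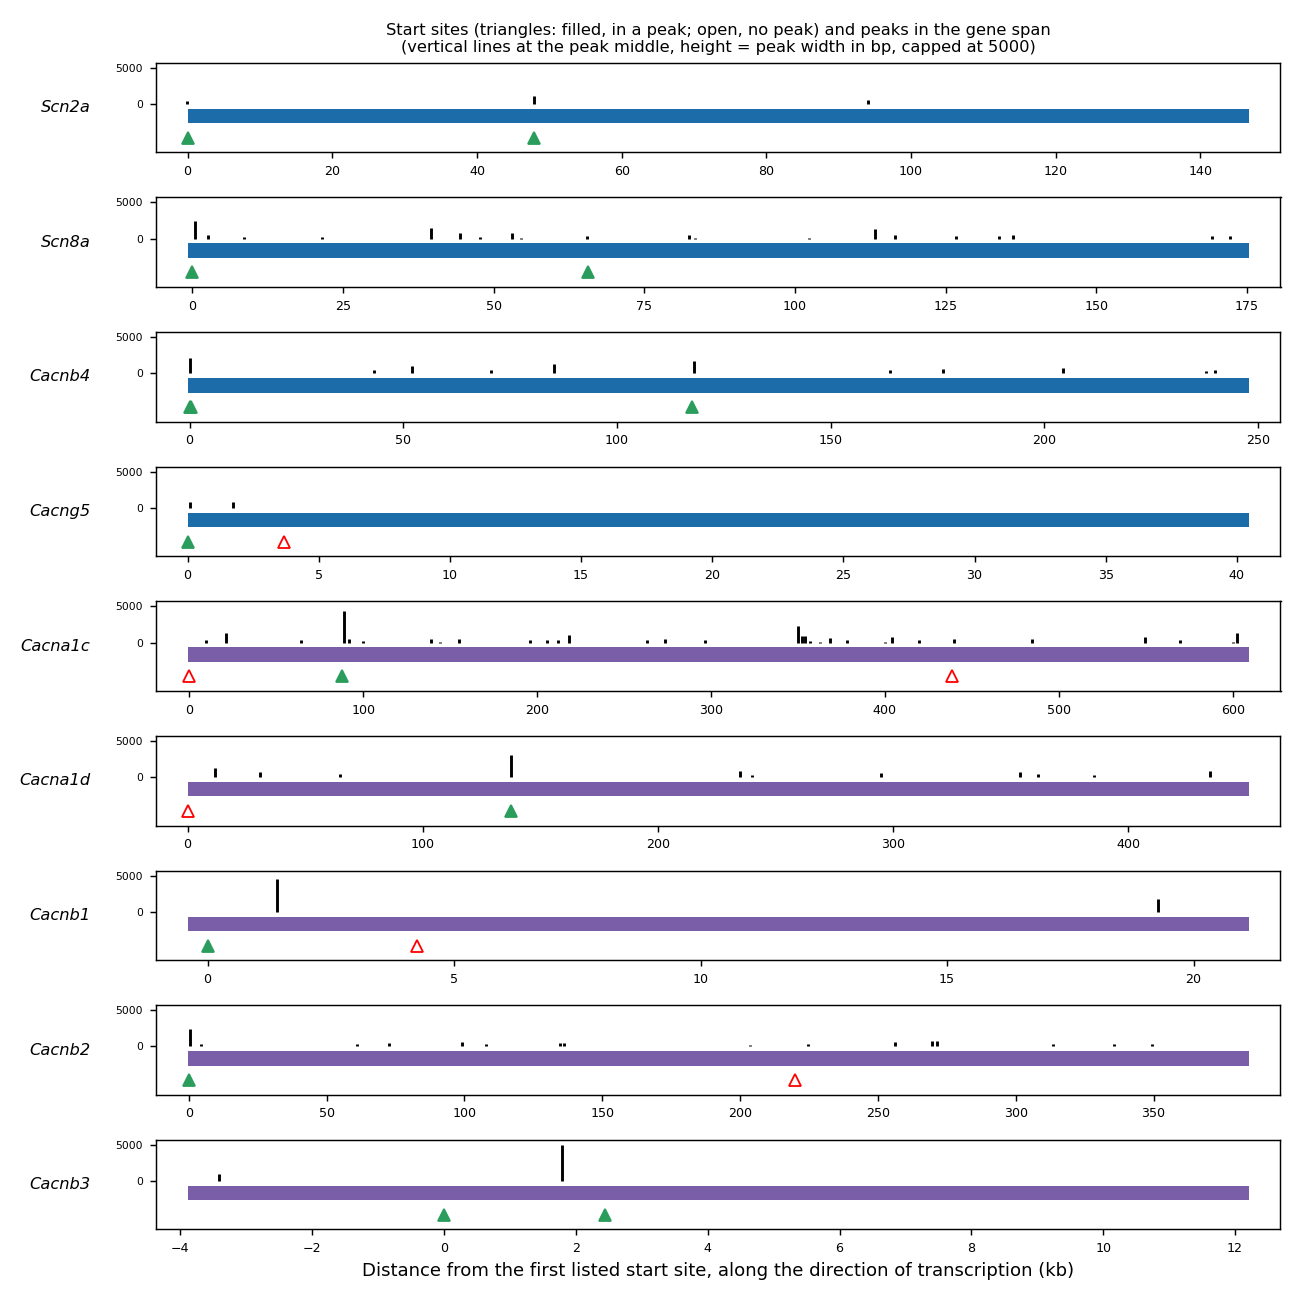
The 9 channel genes with more than 1 listed start, each drawn along its direction of transcription in kb from the first listed start (bar: gene span; colour: blue for neuronal, purple for mixed). Filled triangles are starts in a peak, open triangles starts outside any peak, and vertical lines are peaks in the span, with height for width in bp up to the limit given in the title. At Cacna1c and Cacna1d the tall line stands over an internal start and not over the first. Peaks outside the span, such as the gene-end peak just beyond the 5′ end of Cacna1c, are not drawn.

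Some sodium channel genes had accessible starts with few CG. The first Scn2a window held 3 CG under a peak of 404 bp, and the second, 47.9 kb further on, held 9 CG under a peak of 1096 bp. Scn2b, a sodium channel beta subunit gene, had 2 CG under a peak of 1095 bp, and Scn1a, the sodium channel of inhibitory interneurons, had 5 CG under 1340 bp. Of windows with at most 4 CG, 2 of 10 were in a peak in channel genes (those of Scn2a and Scn2b) and 9.84% over all protein-coding genes. Of windows with 5 to 14 CG, 10 of 14 were in a peak, against 63.3%, and of windows with 15 or more, 17 of 17, against 97.97%. Among muscle and sensory genes no window held more than 11 CG (range 3 to 11), while neuronal windows ranged from 2 to 43, with a median of 15 against 8 in the muscle and sensory windows. CG number therefore differed between the classes together with the share of windows in a peak, and its part in that difference was not tested.

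**Figure D3:**
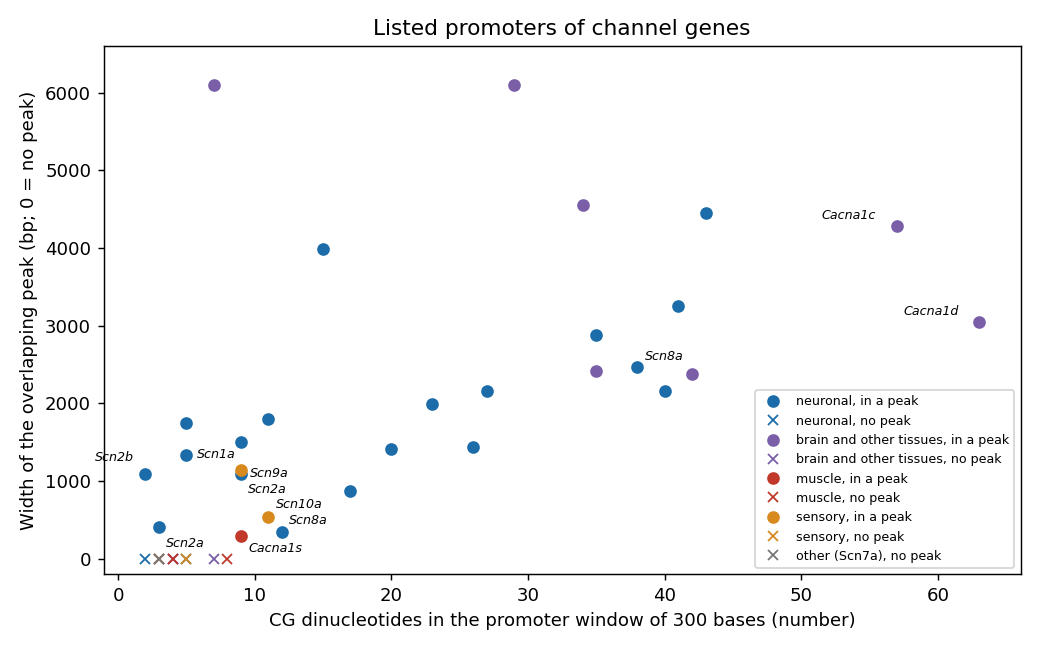
Each of the 41 listed promoter windows of channel genes by its number of CG dinucleotides in 300 bases (horizontal) and the width of the overlapping peak in bp (vertical; crosses at 0 have no peak), coloured by class. All windows with 15 or more CG are in a peak, and the windows of Scn2b and the first start of Scn2a are in a peak with 2 and 3 CG.

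The windows were searched on both strands for short letters of known factors. The Sp-factor letters GGGCGG occurred in 14 of 29 channel windows in a peak (48.3%), against 66.3% of all protein-coding windows in a peak. The letters TGACAG, bound by MEIS factors, were in 6 of 41 channel windows (14.6%), against 18.7% of all windows. The first Scn2a window and the Cacng3 window each had 1 match on each strand, and the first Cacna1c window, outside any peak, had 3 matches. No channel window held the homeodomain letters TAATTA (4.53% of all windows did). TTCAGCACC, part of the site of the neuronal repressor REST, was in none of the channel windows and in 0.414% of all windows, and the same letters followed by 2 free bases and GGACAG in none and in 0.00941%. GGACAG, another part of that site, was in 7 channel windows (17.1%), against 22.3%, and TATAAA in 2 (4.88%), against 12.6%. A match or its lack describes these letters in these windows only. Any window with the joined letters also counts for each of its parts.

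Away from gene ends, the channel loci held more peaks than the median gene. The median channel locus held 10.5 distal peaks (quartiles 5.75 and 14.2), against 3 over all protein-coding genes (1 and 6). Channel genes are long, with a median span of 104062 bp against 17219 bp, so each count was divided by the mean of protein-coding genes in the same of 10 length classes. The longest class is wide: it held channel genes of 110474 to 817833 bp, all divided by the same mean of 13.1. The class below, which held channel genes up to 97650 bp, had a mean of 6.30. Ratios of genes near this boundary can thus differ while their counts are close. The median ratio was 1.44 for channel genes and 0.793 for all protein-coding genes, and 28 of 40 channel genes were above 1, against 40.3% of all. By class the median number of distal peaks was 10.5 in neuronal, 15 in mixed, 7 in muscle and 10 in sensory genes, and the median ratio 1.44, 1.53, 1.90 and 0.994 in the same order. The order of the classes depended on the counting. With gene-end peaks counted too, the median ratio was 1.48 in neuronal and 1.23 in muscle genes, and with 50 length classes it was 1.39 in neuronal and 1.51 in sensory genes. All 5 muscle genes, 15 of 22 neuronal genes and 2 of 5 sensory genes were above 1. The classes overlapped widely, with ratios of 0.0764 to 2.75 in neuronal, 1.09 to 3.17 in muscle and 0.0764 to 1.75 in sensory genes.

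**Figure D4:**
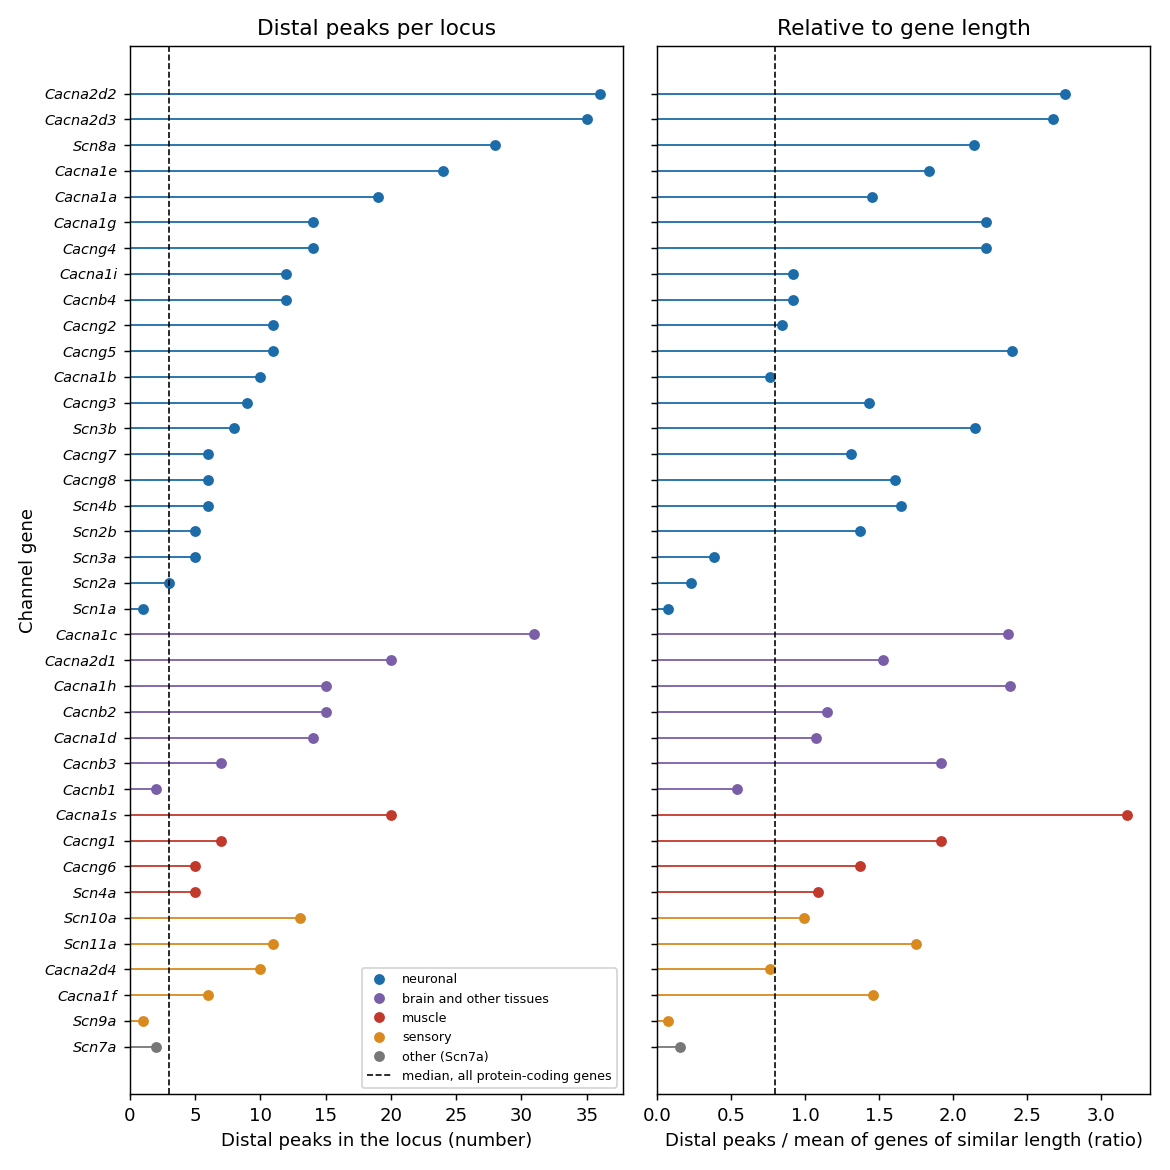
Distal peaks in the locus of each channel gene (left, number) and the same divided by the mean of protein-coding genes of similar length (right, ratio), for 38 of the 40 genes, ordered by class and then by number; the dashed line is the median of all protein-coding genes (3 and 0.793). Neuronal genes run from 36 distal peaks at Cacna2d2 to 1 at Scn1a, and the muscle gene Cacna1s has the highest ratio, 3.17.

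The way peaks are given to genes changed the muscle and sensory counts. With each peak given to its nearest protein-coding gene, the median number was 8 in neuronal, 2 in muscle and 5 in sensory genes. When peaks inside another protein-coding gene were left out, an alternative added after the data had been seen, the medians were 8.5 in neuronal, 3 in muscle and 6 in sensory genes. With that alternative the ratio to genes of similar length was 1.63 in neuronal, 1.55 in muscle and 0.757 in sensory genes. At Cacna1s, 9 of the 20 distal peaks lay inside other protein-coding genes. At Cacng1 the same held for 5 of 7 distal peaks and at Cacna1f for 4 of 6. Whether a peak acts on the gene it lies in was not tested.

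The sodium channel alpha genes lie in clusters that differed in density. On chromosome 2, Scn3a, Scn2a, Scn1a, Scn9a and Scn7a span 1327793 bp with 46 peaks, of which 34 lay between Scn2a and Scn1a, a stretch that holds Csrnp3, Galnt3 and Ttc21b. Inside the channel genes themselves there were 4 peaks at Scn3a, 4 at Scn2a, 2 at Scn1a, 1 at Scn9a and none at Scn7a, although each gene is over 100 kb long. Scn3a is the embryonic brain sodium channel, and Scn2a and Scn1a are the main sodium channels of excitatory and inhibitory forebrain neurons. Their loci held 5, 3 and 1 distal peaks, or 0.382, 0.229 and 0.0764 times the mean of genes of similar length. In that length class, 3.35% of genes had fewer distal peaks than Scn1a and Scn9a, a nociceptor channel that also had 1. As few as 1 or fewer were held by 7.25% of the class. For peaks in the span, 29.3% of the length class had as few as Scn3a and Scn2a or fewer, 15.2% as few as Scn1a or fewer, 8.22% as few as Scn9a or fewer and 2.07% none, like Scn7a.

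Peaks at starts were present in this cluster. Scn1a had a peak of 1340 bp over its start (66439903 to 66441243), which also reached the end of the non-coding gene Gm13629, and 1 distal peak of 1778 bp (66408641 to 66410419), its middle 31307 bp from the start. Scn9a had a single peak in its span, of 1143 bp over its start (66634279 to 66635422). Scn3a had a peak of 1784 bp at its high-coordinate end (65566131 to 65567915) and 2 distal peaks in its span. Scn7a had 3 peaks in its locus, all in the flanks, and its promoter window was 14660 bp from the nearest. Of the 5 genes, Scn7a was the one without a gene-end peak.

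The nociceptor genes Scn10a and Scn11a are neighbours on chromosome 9. Scn10a held 6 peaks in its span (5.41 per 100 kb) and Scn11a 2 (2.79 per 100 kb). The neuronal genes Scn3a, Scn2a and Scn1a had 3.62, 2.73 and 1.18 per 100 kb, but the neuronal gene Scn8a held 20 peaks in a span of 176076 bp. The nociceptor loci held 13 distal peaks (0.994 times genes of similar length) at Scn10a and 11 (1.75 times) at Scn11a. Scn10a is in the longest length class and Scn11a in the class below, so these ratios have different divisors. Of all peaks in these loci, 9 of 15 at Scn10a and 10 of 12 at Scn11a lay in the flanks. Other channel loci shared 11 of the 15 peaks at Scn10a and 4 of the 12 at Scn11a. The start of Scn10a lay under a peak of 531 bp (119718975 to 119719506) and the promoter window of Scn11a was 9940 bp from the nearest peak. Outside the clusters, Scn8a, the sodium channel of nodes of Ranvier, had 28 distal peaks (2.14 times genes of similar length), and both its listed starts were in a peak, of 2469 and 349 bp. Scn4a had 5 distal peaks (1.09 times).

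**Figure D5:**
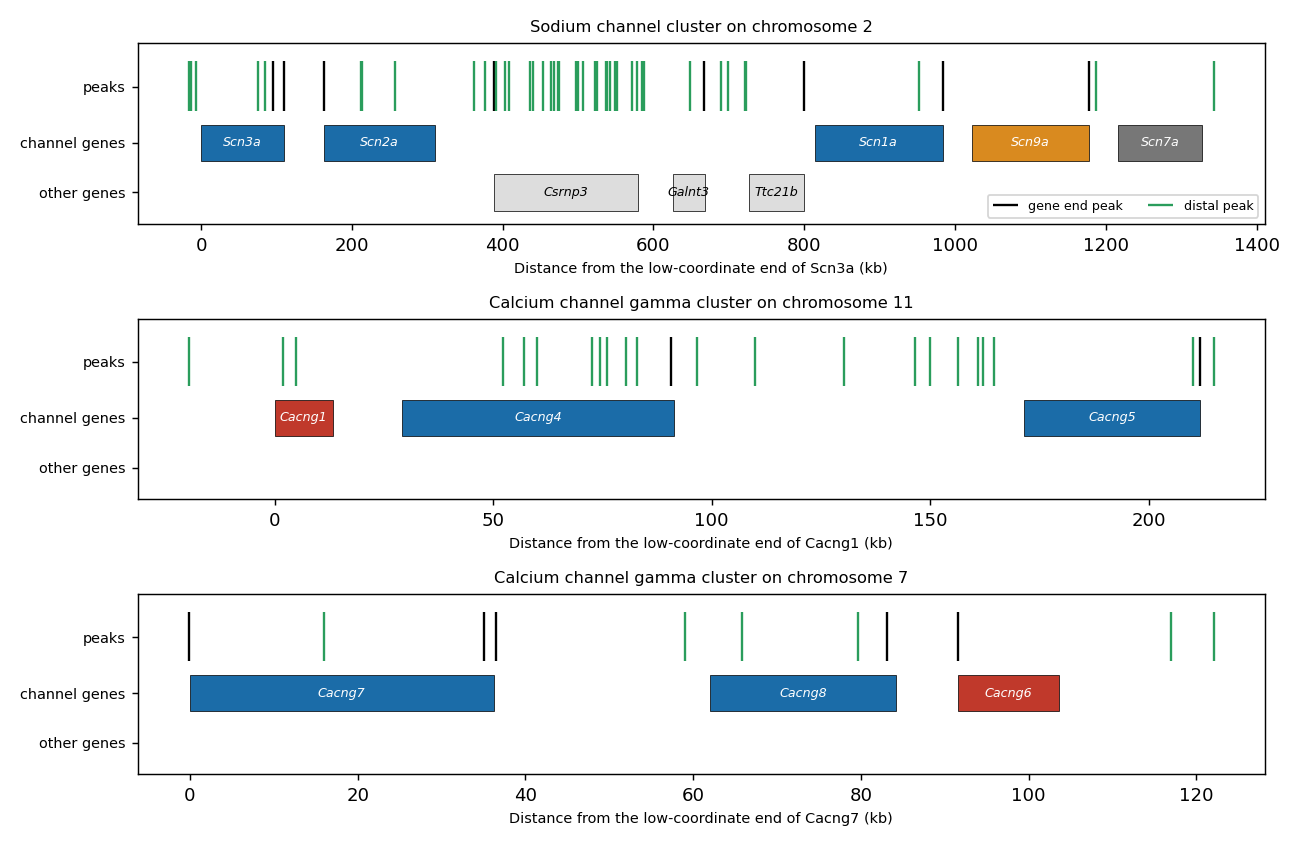
Peaks along 3 channel gene clusters, in kb from the low-coordinate end of the first gene; coloured boxes are channel genes (blue neuronal, red muscle, orange sensory, grey Scn7a), light boxes other protein-coding genes, and vertical lines peaks (black at a gene end, green distal). The 34 peaks between Scn2a and Scn1a contrast with the 4, 4, 2, 1 and 0 peaks within Scn3a, Scn2a, Scn1a, Scn9a and Scn7a.

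Sodium channel beta subunit genes, which encode adhesion molecules that adjust channel gating, each had a gene-end peak and between 5 and 8 distal peaks. Scn3b had 8 (2.15 times genes of similar length), 5 of which lay inside the neighbouring gene Gramd1b. Scn4b, a beta subunit abundant in adult striatum, had 6 (1.65 times), and its start held 26 CG under a peak of 1443 bp. Scn2b and Scn4b are neighbours on chromosome 9, and 7 peaks were shared by their loci. Scn2b had 5 (1.37 times).

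Calcium channel alpha1 genes differed widely in distal peaks. Cacna1c had 31 distal peaks (2.37 times genes of similar length), Cacna1e, the R-type channel gene, 24 (1.83 times) and Cacna1a, the P/Q-type channel gene, 19 (1.45 times). The second L-type gene, Cacna1d, had 14 (1.07 times). Cacna1b, the N-type channel gene, was lower, with 10 (0.764 times), although its start lay under a peak of 2879 bp. The T-type channel genes differed less in number than in ratio: Cacna1h had 15 distal peaks (2.38 times) and no gene-end peak. Cacna1g had 14 (2.22 times) with peaks at both ends, and Cacna1i had 12 (0.917 times). Cacna1i, of 111055 bp, is in the longest length class and the other T-type genes are in the class below, so their ratios have different divisors. The peak of 2709 bp nearest the high-coordinate end of Cacna1h (25432345 to 25435054 on chromosome 17) lay inside the gene, just beyond the 1000 bp window. The listed start of Cacna1e lay under a peak of 1797 bp, and the high-coordinate end of the gene under one of 2122 bp. Cacna1s, the skeletal muscle gene, had 20 distal peaks and the highest ratio of the family, 3.17, and Cacna1f, the photoreceptor gene, had 6 (1.46 times), only 2 of them outside other genes.

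The alpha2delta genes, whose products bring calcium channels to the membrane and include the targets of gabapentin, held the most distal peaks. Cacna2d2 had 36 (2.75 times genes of similar length) in a gene of 129614 bp, Cacna2d3 had 35 (2.67 times) in a gene of 817833 bp, and Cacna2d1 had 20 (1.53 times). Per length of locus these differ widely, with 20.5 peaks of any kind per 100 kb at Cacna2d2, the highest of the 40 genes, 3.92 at Cacna2d3 and 4.07 at Cacna2d1. All 3 had a start with 41 to 43 CG under a peak of 2376 to 4453 bp. Cacna2d4, the retinal member, had 10 distal peaks (0.764 times), and 6 of its 15 peaks were shared with the locus of its neighbour Cacna1c.

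The beta subunit genes, which encode intracellular subunits that stabilise the channel, ranged from 15 distal peaks at Cacnb2 (1.15 times genes of similar length) and 12 at Cacnb4 (0.917 times) to 7 at Cacnb3 (1.92 times) and 2 at Cacnb1 (0.536 times). Cacnb4, in which mutation causes ataxia and seizures in the lethargic mouse, had all 3 listed starts in a peak, including 1 with 5 CG located 118 kb inside the gene. Both starts of Cacnb3 lay under 1 peak of 6099 bp (98631066 to 98637165 on chromosome 15). Each beta subunit gene had a gene-end peak.

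Gamma genes of brain and muscle lie side by side in 2 clusters. On chromosome 11, the muscle gene Cacng1 held 2 peaks in its span, neither at a gene end, next to Cacng4 with 9 and Cacng5 with 2, and a further 9 peaks lay between Cacng4 and Cacng5. Per length, Cacng4 had 14.4 peaks per 100 kb and Cacng1 had 15.1. A peak of 3829 bp (107792047 to 107795876) covered the high-coordinate end of Cacng4. On chromosome 7, the neuronal genes Cacng7 and Cacng8 held 3 peaks each (8.29 and 13.5 per 100 kb) and the muscle gene Cacng6 held 1 (8.28 per 100 kb), and Cacng7 had a peak of 3982 bp over its start. Distal peaks numbered 14 at Cacng4, 11 at Cacng2 (stargazin), 11 at Cacng5, 9 at Cacng3, 7 at Cacng1, 6 each at Cacng7 and Cacng8 and 5 at Cacng6. The loci in each cluster share peaks: 6 of the 7 at Cacng1 were also in the Cacng4 locus, and all 7 at Cacng6 were also in the loci of Cacng7 or Cacng8. The locus counts of Cacng1 and Cacng6 thus rest largely on peaks that are also counted for neighbours. Neuronal genes of the clusters shared peaks with other channel loci too: Cacng8 shared 10 of 10, Cacng7 7 of 12, Cacng4 7 of 15 and Cacng5 1 of 12.

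In the 17 channel genes over 100 kb with a listed strand, 25.1%, 26.5%, 24.2% and 24.2% of 215 distal peaks lay in 4 successive stretches of equal length from the 5′ end. In the 1866 such protein-coding genes the shares were 22.3%, 24.9%, 25.5% and 27.3%. The distal peaks of the channel loci had a median width of 490 bp, against 488 bp over all distal peaks. The 40 loci held 564 different peaks, 442 of them distal, and the sum over loci was 612 because neighbouring loci overlap.

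Partner genes of the channels were described in the same way. Of 36 genes that encode channel-binding, anchoring and calcium-release proteins, 33 had a gene-end peak (91.7%), against 67.3% of all protein-coding genes. The median of the 36 genes was 9 distal peaks and 1.1004 times genes of similar length, against 3 and 0.793 over all protein-coding genes. The most distal peaks were at Ank3 (44), which encodes the ankyrin that anchors sodium channels at the axon initial segment, Ank2 (31) and Nfasc (30), which encodes the adhesion molecule neurofascin of the initial segment and node. The fewest were at Stac (0), Rrad (1) and Jph1 (1), of which Rrad encodes an inhibitor of calcium channels in heart and Jph1 a junctional protein of skeletal muscle. The genes without a gene-end peak were Fgf13, Nedd4l and the retinal calcium-binding protein gene Cabp4. Ryr1, the calcium release channel of skeletal muscle, had 10 distal peaks (0.764 times), and the widest peak at its ends was 690 bp.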

How the data were processed

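Single-nucleus ATAC-seq libraries (2, in 1 group) were represented by 1 deposited list of peak positions with no count or score. Per the submitters' processing notes, mm10 is the build named, and the tools named are Signac and Cell Ranger ATAC (1.2.0), with no role given. The peak caller, the threshold, whether libraries were pooled and how doublets were treated are not given in the sources used here. Positions are printed as deposited and may be off by 1 base.

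Gene spans were taken from RefSeq's GRCm38.p6 annotation (49997 entries, of which 402 on scaffolds or with repeated symbols were left out). Overlaps of at least 1 bp were counted in Python 3.11.15 with pandas 2.3.3, and intervals were exact (Clopper-Pearson, scipy 1.17.1) and cover counting of genes only. Counting was tested on simulated data, in which planted peaks were recovered at 500 of 500 genes. All members were to be named, but some genes and the results that need them are not reported here, although they stay in the counts and medians. Of other genes, those sharing a member's gene-end peak and the 3 highest and 3 lowest partner genes were to be named, and the others were chosen after their values were seen. Members, classes and lists were chosen with earlier results of these data known. The alternatives were flank, gene-end window, peak width, midpoint, assignment of peaks, length classes and mixed genes added to the neuronal class.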

Additional observations from a re-analysis of the deposited data

How the results depend on the processing

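Of 81 values recomputed under 14 settings, 61 stayed within 1.5 times the reported median or inside the reported interval of a share, and 20 did not. With a flank of 10 kb in place of 50 kb the median number of distal peaks was 2 in muscle and 3 in sensory genes, and the sensory ratio was 0.657. With a flank of 100 kb the medians were 16 in neuronal and 16 in muscle genes, and with the gene span alone 5.5 in neuronal, 2 in muscle and 2 in sensory genes. Smaller and larger loci hold fewer and more peaks by construction. With peaks wider than the median only, the medians were 4 in each of the neuronal, muscle and sensory classes, since fewer peaks were counted. With peaks assigned to the nearest gene alone, the medians were 2 in muscle and 5 in sensory genes and the sensory ratio 0.522. With peaks inside other genes left out, the medians were 3 in muscle and 6 in sensory genes. With gene-end peaks counted too the neuronal ratio was 1.48 and the muscle ratio 1.23, and with 50 length classes the neuronal ratio was 1.39 and the sensory ratio 1.51, both the reverse of the reported order. With peaks inside other genes left out, the ratio was 1.63 in neuronal and 1.55 in muscle genes, also reversed. The cause was not tested for the ratios. With a gene-end window of 2500 bp the share was 100% in muscle and 100% in sensory genes, against 71.4% of all protein-coding genes. No paired analysis was possible because the deposited peak list holds no value per library. Depth is unknown, so a missing peak does not show closed chromatin.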
